A study of Mus musculus with 8 samples.

Results

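The 9 genes described here are listed neighbours of Erbb2 on mouse chromosome 11. Neurod2, Ppp1r1b, Stard3, Tcap, Pnmt and Pgap3 lie before it in chromosome order, and Mien1, Grb7 and Ikzf3 after it. The list is not strictly that of the nearest genes. In protein-coding gene order from Erbb2, Neurod2 stands at −7 and Ppp1r1b at −5, with an unlisted gene between them, and Zpbp2, outside the list, stands at 4. The 9 genes were chosen by position. For each gene the rule then took the probe with exactly 1 gene symbol and the highest mean over the 8 tumours. Each gene that could be measured had a single such probe, so the measured level decided nothing. The only annotated probe of Ppp1r1b carries 2 gene symbols, so that gene was not analysed here. The other 8 of the 9 were measured, among 22180 genes with a probe of their own, and all 8 passed a filter that left out the dimmest 25% of genes and kept 16635. The genes were listed with earlier results of these data known.

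Total RNA was measured on Affymetrix whole-transcript arrays, 1 array per primary mammary tumour of transgenic FVB mice that had received no treatment. Every tumour carried NeuNT, Neu being what rodent work calls the receptor tyrosine kinase ErbB2. In 4 tumours NeuNT was the whole genotype. The 4 tumours labelled NeuNT/H1074R also carried a mutant form of p110α, the catalytic subunit of PI3K, which the series title writes as H1047R. The sources used here do not give the promoter that drives the transgene, the age of the mice, or whether each tumour came from a mouse of its own. P-values therefore measure the spread between these tumours. Values are log2 array signals as deposited, so a difference of 1 is a 2-fold difference, and array medians lay between 4.81 and 4.87. Of 6 measured epithelial markers, Epcam, Krt8, Krt18 and Cdh1 had log2 levels of 9.78 or more in every tumour, while Krt19 ran from 5.37 to 11.52 and Krt14 from 5.36 to 12.49. Whether the Erbb2 probe reads the mouse gene, the transgene or both is not known from the labels.

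ErbB2 sits in the cell membrane and, once paired with a related receptor and phosphorylated, recruits adaptor proteins that start PI3K and MAP kinase signalling. In human breast cancer the chromosome segment around ERBB2 is often present in extra copies, and STARD3, PGAP3, MIEN1 and GRB7 are then commonly expressed at high levels along with ERBB2. The segment also holds genes with a narrow tissue range, such as the muscle gene Tcap and the neuronal gene Neurod2. The arrays measured RNA and not gene copies.

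The promoters of Stard3, Pgap3 and Mien1, whose RNA varied widely between tumours, are shown side by side with those of Erbb2 and Neurod2. The RNA of Erbb2 varied less (log2 SD 0.51 over the 8 tumours), and that of Neurod2 varied little (0.16). Of Erbb2 and its 9 neighbours, 5 have an entry in the RefSeq promoter table (build GRCm38.p6), which gives 250 bases before and 50 after the start of transcription. Ppp1r1b, Tcap, Pnmt, Grb7 and Ikzf3 have none. Grb7, which varied most, and Tcap and Pnmt, which varied little, are therefore absent from the comparison of motifs. Erbb2 lies at chr11:98412234-98412533 on the plus strand, Stard3 at chr11:98358118-98358417 on the plus strand, Pgap3 at chr11:98400441-98400740 on the minus strand, Mien1 at chr11:98438939-98439238 on the minus strand and Neurod2 at chr11:98329596-98329895 on the minus strand. Each is written 5′ to 3′ along its gene. Capitals mark the letters of the GC box (GGGCGG), the CCAAT box (CCAAT), the ETS core (CCGGAA), the E-box (CACGTG) and the TATA box (TATAAA), each searched on both strands.
Erbb2: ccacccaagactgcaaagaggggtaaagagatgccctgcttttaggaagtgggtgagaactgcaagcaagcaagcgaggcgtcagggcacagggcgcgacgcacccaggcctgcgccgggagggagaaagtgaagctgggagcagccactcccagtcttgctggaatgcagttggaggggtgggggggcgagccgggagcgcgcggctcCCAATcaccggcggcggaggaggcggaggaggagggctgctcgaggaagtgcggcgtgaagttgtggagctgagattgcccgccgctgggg
Stard3: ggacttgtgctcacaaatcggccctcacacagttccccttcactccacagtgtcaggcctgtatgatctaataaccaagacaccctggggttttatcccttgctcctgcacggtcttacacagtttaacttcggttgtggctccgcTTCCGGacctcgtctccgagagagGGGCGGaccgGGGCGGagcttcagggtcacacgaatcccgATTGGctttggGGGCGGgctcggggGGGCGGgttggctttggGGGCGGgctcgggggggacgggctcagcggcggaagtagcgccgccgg
Pgap3: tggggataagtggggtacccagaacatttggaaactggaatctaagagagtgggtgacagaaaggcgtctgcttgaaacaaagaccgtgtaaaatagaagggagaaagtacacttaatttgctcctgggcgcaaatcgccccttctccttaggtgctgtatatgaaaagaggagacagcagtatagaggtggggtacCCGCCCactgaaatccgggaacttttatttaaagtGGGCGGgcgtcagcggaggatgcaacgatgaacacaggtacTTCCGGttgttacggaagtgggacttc
Mien1: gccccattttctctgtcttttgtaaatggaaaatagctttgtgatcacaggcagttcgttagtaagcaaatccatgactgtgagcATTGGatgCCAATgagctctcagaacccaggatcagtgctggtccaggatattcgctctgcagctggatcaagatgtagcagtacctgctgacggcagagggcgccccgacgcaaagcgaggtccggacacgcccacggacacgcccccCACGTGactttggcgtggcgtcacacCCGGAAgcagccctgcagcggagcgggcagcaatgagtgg
Neurod2: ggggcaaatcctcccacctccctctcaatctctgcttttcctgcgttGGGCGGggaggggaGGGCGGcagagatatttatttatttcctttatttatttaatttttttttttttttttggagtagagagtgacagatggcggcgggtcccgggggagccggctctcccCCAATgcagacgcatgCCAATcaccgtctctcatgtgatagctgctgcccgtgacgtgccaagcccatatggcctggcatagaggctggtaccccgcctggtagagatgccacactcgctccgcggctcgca

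The letters CCGGAA, the only form of the ETS core searched, stood once in each of Stard3, Pgap3 and Mien1. They were not in the windows of Erbb2 or Neurod2, and 14.9% of all 32817 promoters of this length hold them. The shorter letters GGAA were not searched, and they do stand in the Erbb2 window printed above. The GC box stood 5 times in Stard3 and 2 times in each of Pgap3 and Neurod2, and 35.6% of promoters hold it. The CCAAT box stood in Erbb2, Stard3, Mien1 and Neurod2 (37.4% of promoters). The E-box stood in Mien1 (7.15%), and the TATA letters in none of the 5 windows (13.6%). No motif overlapped another in these windows. The GC content ran from 49.0% in Pgap3 to 66.0% in Erbb2. These matches describe letters and say nothing of which factors bind.

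Stard3, Pgap3, Mien1 and Grb7 varied widely from tumour to tumour, with NeuNT replicate 2 lowest for each of the 4, while Neurod2, Tcap and Pnmt stayed within a narrow range. The SD over the 8 tumours was 1.34 for Grb7, 1.19 for Pgap3, 1.18 for Stard3 and 0.95 for Mien1, on the log2 scale. The median SD over all genes tested was 0.25, and 3.79% of them had a larger SD than Mien1. For Erbb2 itself the SD was 0.51. It was 0.84 for Ikzf3, which rested on a single tumour, and 0.21, 0.21 and 0.16 for Tcap, Pnmt and Neurod2. No flanking gene passed the test between genotypes.

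**Figure D1:**
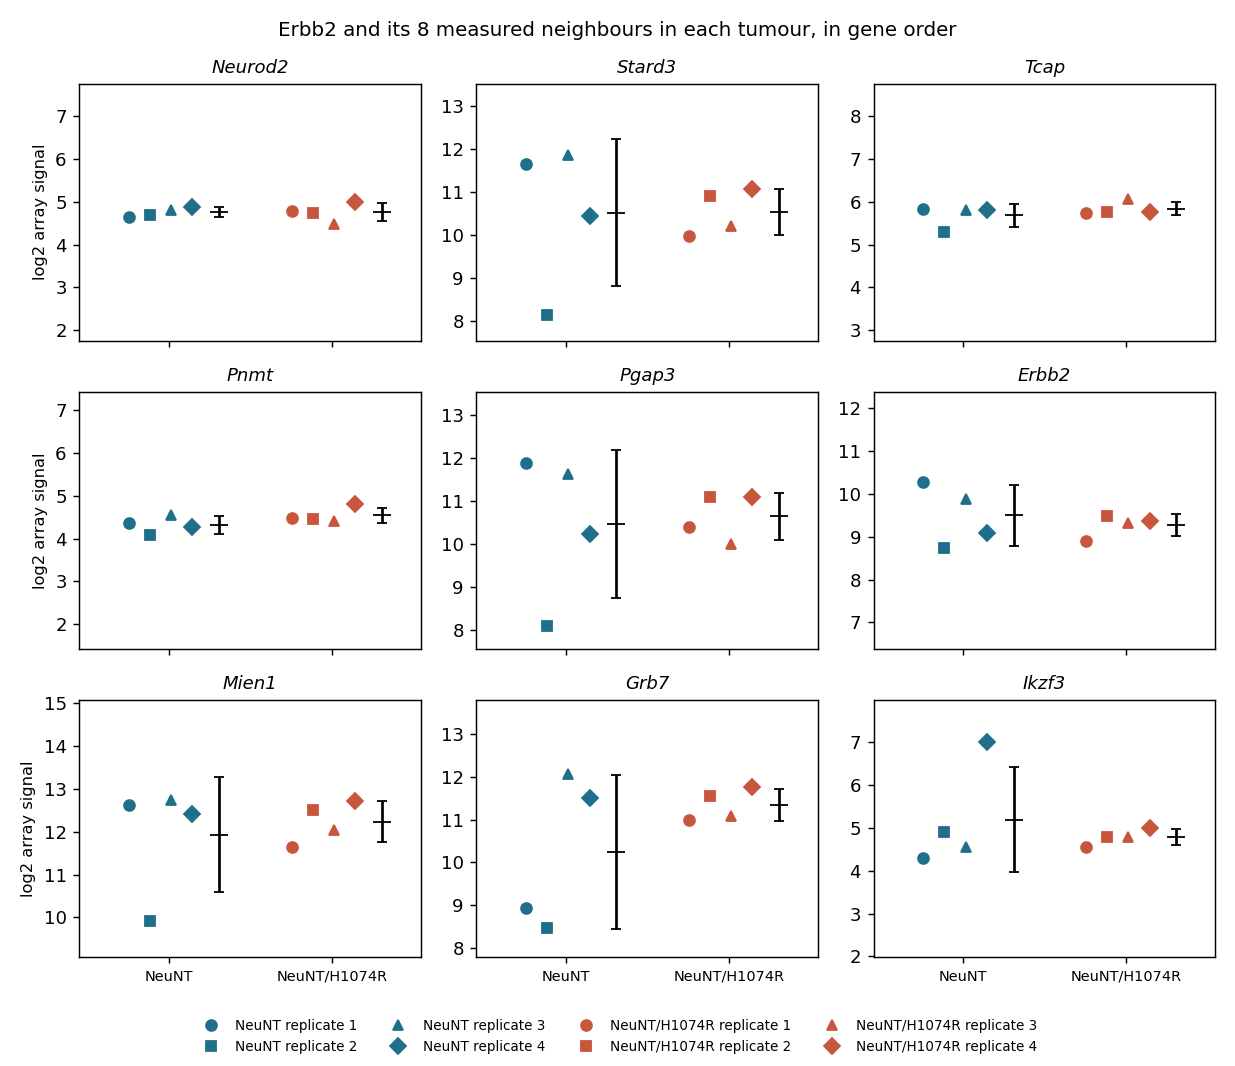
Log2 array signals (vertical axis, 6 log2 units in every panel) of Erbb2 and its 8 measured neighbours, 1 point per tumour, with the mean and SD of each genotype (n = 4) in black. NeuNT replicate 2 is lowest for Stard3, Pgap3, Erbb2, Mien1 and Grb7, NeuNT replicate 1 joins it at the bottom for Grb7 alone, and NeuNT replicate 4 stands above the others for Ikzf3.

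Erbb2 stood at 10.28, 8.73, 9.89 and 9.10 in NeuNT replicates 1 to 4, and at 8.89, 9.49, 9.33 and 9.36 in NeuNT/H1074R replicates 1 to 4. The NeuNT tumours held its highest and its lowest value, and no tumour lay 2-fold from the median of the other 7. The closest to that were NeuNT replicate 1, with a log2 deviation of 0.96, and NeuNT replicate 2, with −0.63.

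Stard3 encodes a cholesterol-binding protein of late endosomes that passes sterol between membranes. Its log2 values were 11.64, 8.12, 11.87 and 10.44 in NeuNT replicates 1 to 4, and 9.96, 10.92, 10.21 and 11.07 in NeuNT/H1074R replicates 1 to 4. NeuNT tumours held both the highest and the lowest values, and all 4 NeuNT/H1074R tumours lay between them. Set against the median of the other 7 tumours, NeuNT replicate 2 was lower by a log2 deviation of −2.80, which is 6.95-fold. NeuNT replicates 1 and 3 were higher, by 1.21 and 1.43.

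Pgap3 encodes an enzyme of the Golgi that remodels the lipid of GPI anchors, the glycolipid tails that hold many proteins at the cell surface. It stood at 11.88, 8.10, 11.64 and 10.24 in NeuNT replicates 1 to 4, and at 10.40, 11.09, 9.99 and 11.09 in NeuNT/H1074R replicates 1 to 4. The tumours fell in nearly the same order as for Stard3. NeuNT replicate 2 was again lowest, with a log2 deviation of −2.99 (7.93-fold), and NeuNT replicates 1 and 3 were highest, at 1.48 and 1.24. NeuNT/H1074R replicate 3 lay just past 2-fold below the others, at −1.09, but not against the mean of the other 7 (−0.64), nor without NeuNT replicate 1 (−0.75) or 3 (−0.75) or NeuNT/H1074R replicate 2 (−0.76) or 4 (−0.75).

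Mien1, on the other side of Erbb2, encodes a small lipid-modified protein at the inner face of the cell membrane that has been linked to cell migration. It stood at 12.63, 9.92, 12.75 and 12.41 in NeuNT replicates 1 to 4, and at 11.65, 12.50, 12.05 and 12.72 in NeuNT/H1074R replicates 1 to 4. NeuNT replicate 2 was far below the rest, with a log2 deviation of −2.58 (5.96-fold), and the other 7 tumours lay within −0.85 and 0.34 of their medians. NeuNT replicates 1 and 3, highest for Stard3 and Pgap3, lay within 0.34 of the others for Mien1.

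Grb7 encodes an SH2-domain adaptor that binds phosphorylated ErbB2. Its log2 values were 8.93, 8.48, 12.06 and 11.50 in NeuNT replicates 1 to 4, and 10.99, 11.55, 11.08 and 11.76 in NeuNT/H1074R replicates 1 to 4. A pair of NeuNT tumours stood at the bottom, more than 2 log2 units below the other 6. The log2 deviation was −3.02 (8.13-fold) in NeuNT replicate 2 and −2.57 (5.95-fold) in NeuNT replicate 1. NeuNT replicate 3 was highest, at 0.98. NeuNT replicate 1 was low for Grb7 while it was high for Stard3 (1.21), Pgap3 (1.48) and Erbb2 (0.96) and near the others for Mien1 (0.22).

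The relatives of Grb7, which lie outside this segment, had other profiles. Grb10 ran from 6.71 to 8.25 and Grb14 from 5.21 to 7.07 over the 8 tumours, each with NeuNT replicate 2 among the 2 highest tumours. Grb2, the unrelated adaptor that couples receptors to Ras, stayed between 8.35 and 8.61.

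Ikzf3 encodes Aiolos, a zinc finger transcription factor of lymphocytes. It stood at 4.31, 4.91, 4.56 and 7.0 in NeuNT replicates 1 to 4, and at 4.57, 4.78, 4.79 and 5.01 in NeuNT/H1074R replicates 1 to 4. NeuNT replicate 4 stood apart, higher than the median of the other 7 by 2.22 on the log2 scale (4.65-fold). Lymphocyte markers moved with it in part. The mean log2 level of 7 measured B and plasma cell markers, of 8 listed, was 5.17 in NeuNT replicate 4 and 4.37 to 4.77 in the other tumours, and Jchain was highest there (7.17, against 4.0 to 5.87). Cd79a and Cd79b were also highest there, and Blk and Mzb1 were not. The mean of 8 measured T and NK cell markers, of 9 listed, was 6.29 there, against 5.91 in NeuNT replicate 2 and 4.85 to 5.60 in the rest. Within the T and NK list, Cd3e (8.57), Cd3g (7.43), Cd8a (6.63) and Nkg7 (7.06) were highest in NeuNT replicate 4. Cd4, Cd2 and Cd3d were not, and Ncr1 was the lowest of the 8 tumours there (3.65). The B cell gene Ms4a1 was dim, at 4.05 or less, and Pax5 in NeuNT replicate 4 was the lowest of the 8 tumours (4.42). After 1 gene with a predicted or clone name, which was counted and not named, the genes whose pattern over the 8 tumours was most like that of Ikzf3 were Aloxe3, a lipoxygenase of the epidermis (Pearson r = 0.98), and the hair keratin-associated genes Krtap10-10 (0.98) and Krtap27-1 (0.97). The part of other cell types in the Ikzf3 value was not tested, and in bulk tumours fewer cells of a type and less RNA per cell cannot be told apart.

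Neurod2, Tcap and Pnmt lie between or beside the variable genes but did not share their range. Neurod2, a transcription factor of neurons, stood at 4.63, 4.70, 4.81 and 4.88 in NeuNT replicates 1 to 4, and at 4.79, 4.74, 4.49 and 5.0 in NeuNT/H1074R replicates 1 to 4. Pnmt, the enzyme that converts noradrenaline to adrenaline, stood at 4.36, 4.07, 4.56 and 4.26, and at 4.49, 4.46, 4.41 and 4.80, in the same order. The mean over 5 neuronal markers was 6.04 in NeuNT replicate 4 and 5.24 to 5.56 elsewhere, and the mean over 5 chromaffin cell markers ran from 4.60 to 4.92. Within the neuronal list, Tubb3 (8.19, against 4.85 to 5.89) and Rbfox3 (5.93, against 5.28 to 5.67) were highest in NeuNT replicate 4. Snap25, Syt1 and Elavl3 were not. Neurod2 and Pnmt lay close to the line of 4.06 under which genes were left out as dim, so a decrease in them would be hard to see on these arrays. The same holds for Ikzf3 outside NeuNT replicate 4, where it lay between 4.31 and 5.01.

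Tcap, which encodes the titin cap of the muscle Z disc, stood at 5.83, 5.29, 5.80 and 5.80 in NeuNT replicates 1 to 4, and at 5.74, 5.76, 6.06 and 5.77 in NeuNT/H1074R replicates 1 to 4. It was lowest in NeuNT replicate 2 and highest in NeuNT/H1074R replicate 3, by log2 deviations of −0.51 and 0.29. Skeletal muscle markers were high in 2 tumours, with a mean log2 level over 10 markers of 7.14 in NeuNT/H1074R replicate 1 and 6.90 in replicate 3, against 4.94 to 5.32 in the other 6. Within the list, Mb went otherwise, at 8.38 in NeuNT replicate 3 and 7.64 in NeuNT replicate 2, against 7.32 in NeuNT/H1074R replicate 1. The other markers were highest in the 2 tumours with high means, but Acta1 also reached 8.61 in NeuNT replicate 2. Tcap was thus highest in 1 of the 2 tumours with high muscle markers and near the median in the other. The part of muscle RNA in the Tcap value was not tested.

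Counted over the 8 measured neighbours, 4 of 8 lay more than 2-fold below the median of the other tumours in NeuNT replicate 2, where 1.87% of all genes tested did. In NeuNT replicate 1, 1 of 8 lay below (1.32% of all genes) and 2 of 8 above (1.56%). In NeuNT replicate 3, 2 of 8 lay above (2.65%), and in NeuNT replicate 4, 1 of 8 (3.55%). In NeuNT/H1074R replicate 3, 1 of 8 lay below (1.47%), and no value passed 2-fold in the other 3 NeuNT/H1074R tumours. In total 6 values lay below and 5 above. Without NeuNT replicate 2 the count below was 3. The count above was 3 without NeuNT replicate 1, 2 or 3, or without NeuNT/H1074R replicate 1 or 3.

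NeuNT replicate 2 was the lowest tumour for 6 of the 8 flanking genes. Of these 6, Tcap (−0.51) and Pnmt (−0.39) lay within 2-fold of the median of the other tumours. There 7 of 8 lay below that median. The share of all genes that were lowest in that tumour, or below that median, was not counted. The median log2 deviation in that tumour was −1.54 over the 8 genes and −0.015 over all genes tested. NeuNT replicate 2 also had the highest mean level of 4 fibroblast markers (9.80, against 8.45 to 9.28 elsewhere) and of 3 endothelial markers (8.52, against 7.51 to 8.2). Within the fibroblast list, Dcn (11.88, against 8.29 to 10.12) and Pdgfra (8.12, against 6.58 to 7.68) were highest there. Col1a1 (9.85, against 9.27 to 11.04) and Col3a1 (9.35, against 8.07 to 9.43) were not. The mean of NeuNT replicate 2 over 4 adipocyte markers was 6.72, second to 6.89 in NeuNT replicate 1. The mean of NeuNT replicate 2 over 6 epithelial markers, 10.44, lay inside the range of 9.33 to 11.07 of the other tumours, as did its mean over 3 macrophage markers, 8.86, inside 7.57 to 8.98. Within the epithelial list, Epcam was lowest of the 8 tumours there (10.18, against 10.25 to 10.99). Their part in the low values of the flanking genes was not tested.

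**Figure D2:**
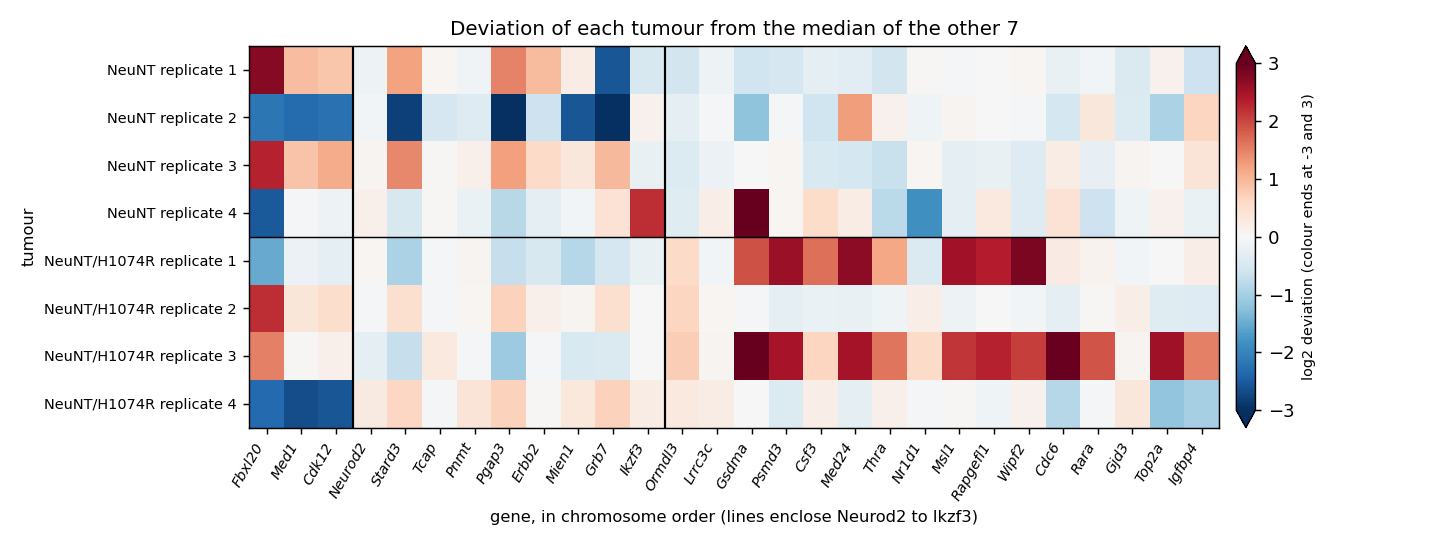
Log2 deviation of each tumour (rows) from the median of the other 7, as colour, for genes in chromosome order (columns); vertical lines enclose the stretch from Neurod2 to Ikzf3, and the horizontal line parts the genotypes. Blue runs from Fbxl20 to Grb7 in NeuNT replicate 2, broken by the narrow-range genes, and covers Fbxl20, Med1 and Cdk12 in NeuNT/H1074R replicate 4, where Top2a is also low (−1.17). In NeuNT replicate 1, Grb7 is the only gene drawn that lies more than 2-fold below the others.

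Gene order was taken from the RefSeq annotation of GRCm38.p6. On the far side of Neurod2 lie Cdk12, a kinase of the transcription machinery, the Mediator subunit Med1 and the F-box gene Fbxl20. In NeuNT replicate 2 all 3 were more than 2-fold lower (−2.18 to −2.30), as were Stard3, Pgap3, Mien1 and Grb7, while Ikzf3 was not (0.12). In NeuNT/H1074R replicate 4 all 3 were also lower (−2.34 to −2.65), where 2.41% of all genes tested were, but Stard3 (0.63), Pgap3 (0.69), Mien1 (0.31) and Grb7 (0.69) lay above the median of the other tumours. In NeuNT replicate 1 the drop lay between Mien1 (0.22) and Grb7 (−2.57). In NeuNT replicate 4 and NeuNT/H1074R replicate 1, Fbxl20 was low (−2.51 and −1.51) while Med1 and Cdk12 lay between −0.28 and −0.04. Fbxl20 was high in NeuNT replicates 1 (2.73) and 3 (2.31) and in NeuNT/H1074R replicates 2 (2.21) and 3 (1.51). No tumour thus lay within 2-fold of the median of the others for Fbxl20, and its low values are not drops from a common level.

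Beyond Ikzf3, 19 of 20 listed genes from Zpbp2 to Igfbp4 were measured and 16 were above the dim line. In NeuNT/H1074R replicate 1, 8 of the 16 were more than 2-fold higher (2.02% of all genes tested), and in NeuNT/H1074R replicate 3, 11 of the 16 (2.01%). None of the 8 measured flanking genes was more than 2-fold higher in either tumour. The proteasome gene Psmd3, for example, had a log2 deviation of 2.58 in NeuNT/H1074R replicate 1 and 2.47 in replicate 3, where Grb7 had −0.51 and −0.42. In NeuNT replicate 4 the high value of Ikzf3 was not shared by Ormdl3 (−0.36) or Lrrc3c (0.19), but Gsdma, a gasdermin of skin epithelium, was higher there by 4.10. Gsdma was also higher in NeuNT/H1074R replicates 3 (3.21) and 1 (1.92), where Ikzf3 stood at 0.0046 and −0.22.

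The co-variation with Erbb2 was measured by Pearson's r over the 8 tumours, with an exact two-sided permutation p over all 40320 pairings, computed for each of 16634 genes. An unadjusted p under 0.05 was reached by 3 of the 8 flanking genes, Stard3, Pgap3 and Mien1, and by 6.84% of all genes. After Benjamini-Hochberg adjustment over all genes, 0 flanking genes passed and 0% of all genes did. The lowest adjusted p of any gene was 0.444.

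Stard3 had r = 0.85 (exact permutation p = 0.00647, adjusted p = 0.572) and Spearman's rho = 0.93 (exact permutation p = 0.00223, adjusted p = 0.413). Without NeuNT replicates 1 and 2, the 2 tumours farthest from the median of Erbb2, r was 0.92 over 6 tumours (exact permutation p = 0.0139). Pgap3 had r = 0.84 (exact permutation p = 0.00873, adjusted p = 0.603) and rho = 0.88 (exact permutation p = 0.00724, adjusted p = 0.482). Over the 6 tumours its r was 0.78 and no longer passed 0.05 (exact permutation p = 0.0667). Without NeuNT replicate 1 alone it was 0.83 and without NeuNT replicate 2 alone 0.86, and both passed (exact permutation p = 0.0218 and 0.0119).

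Mien1 had r = 0.70 (exact permutation p = 0.0454, adjusted p = 0.726) and rho = 0.86 (exact permutation p = 0.0107, adjusted p = 0.503). Over the 6 tumours r was 0.76 (exact permutation p = 0.075). Its call was also lost without NeuNT replicate 2 (r = 0.68) or 3 (0.67), without NeuNT/H1074R replicate 1 (0.70), 2 (0.70) or 3 (0.70), and with arrays centred on their medians (0.69). With both genes centred on their genotype means and pairings permuted within genotype, r was 0.88 for Stard3, 0.89 for Pgap3 and 0.78 for Mien1 (exact permutation p = 0.0278, 0.0451 and 0.0226). No genotype alone holds enough tumours for an r of its own.

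Grb7 had r = 0.04 over the 8 tumours (exact permutation p = 0.925, adjusted p = 0.989) and rho = 0.45 (exact permutation p = 0.267, adjusted p = 0.827). In its level a pair of tumours, NeuNT replicates 1 and 2, stood apart from the other 6. Over the other 6, the same tumours as above, r was 0.80 and did not pass 0.05 (exact permutation p = 0.0556, adjusted p = 0.701). Without NeuNT replicate 1 alone r was 0.76 and passed an unadjusted 0.05 (exact permutation p = 0.0385). Without NeuNT replicate 2 alone it was −0.51 (exact permutation p = 0.252). In the pair, Grb7 was low both where Erbb2 was lowest (8.73, NeuNT replicate 2) and where it was highest (10.28, NeuNT replicate 1). The remaining genes had r of 0.48 for Tcap, 0.33 for Pnmt, −0.16 for Neurod2 and −0.38 for Ikzf3 (exact permutation p = 0.223, 0.432, 0.704 and 0.368, adjusted p = 0.833, 0.901, 0.957 and 0.887). The r of Tcap fell to 0.0735 without NeuNT replicate 2. The rho of these 4 genes, in the same order, was 0.52, 0.38, −0.05 and −0.60 (exact permutation p = 0.197, 0.36, 0.935 and 0.132).

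**Figure D3:**
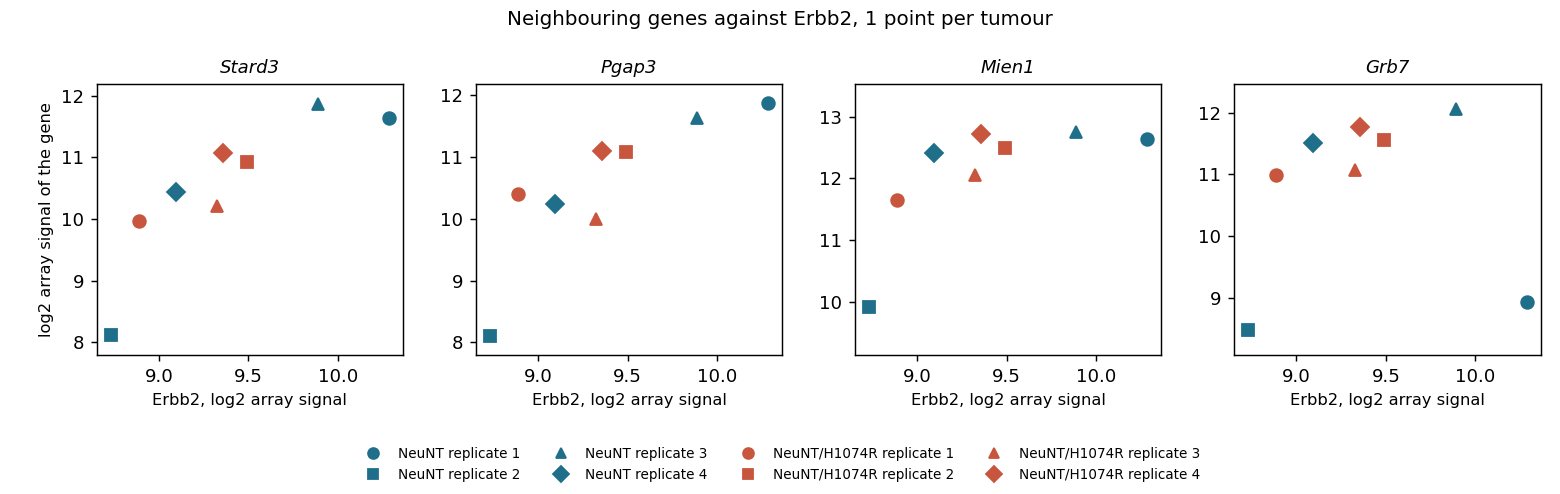
Log2 array signal of Stard3, Pgap3, Mien1 and Grb7 (vertical axes, 4.4 log2 units each) against that of Erbb2 (horizontal axes), 1 point per tumour, coloured by genotype. Stard3 and Pgap3 are higher where Erbb2 is higher (r = 0.85 and 0.84), and NeuNT replicate 1 leaves this pattern for Grb7.

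By likeness over the 8 tumours, the gene closest to Stard3 was Pgap3 (r = 0.98), and Stard3 was second closest to Pgap3, after Plpp2 on chromosome 10 (0.98 each). For Mien1 the closest gene was Ccser1 (0.98) on chromosome 6. For Grb7 the closest named gene was Cyp2w1 (0.97) on chromosome 5, after 1 gene with a predicted or clone name, a kind that was counted and not named. The 3 genes closest to Erbb2, Sft2d2 (0.97), Cdc123 (0.95) and Arhgef38 (0.95), lay on chromosomes 1, 2 and 3. With 8 tumours and 16635 genes, values this high are reached by unrelated genes, and they are given as a description.

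The comparison of genotypes asks whether tumours with mutant p110α differ from those with NeuNT alone in these genes. Between genotypes 0 of 8 flanking genes passed an adjusted p of 0.05 in limma, as did 0% of all genes tested. At an unadjusted p under 0.05, 0 of 8 passed and 3.82% of all genes did. The values of the genotypes overlapped for each of the 8, whereas 2.69% of all genes had groups that did not overlap. Of the 8, 6 had a higher mean in NeuNT/H1074R and 2 a lower mean. Of all 16635 genes tested, 8229 had a higher mean there and 8406 a lower mean.

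Grb7 had the widest difference, at 10.24 ± 1.80 with NeuNT alone and 11.35 ± 0.37 with the mutant as well (SD, n = 4 each). Its 95% interval, −0.66 to 2.87, holds 0 (limma, adjusted p = 0.978). Stard3 stood at 10.52 ± 1.72 and 10.54 ± 0.53, a difference of 0.02 ± 0.76 (SE) with an interval of −1.71 to 1.76. Pgap3 stood at 10.47 ± 1.74 and 10.64 ± 0.54, a difference of 0.18 ± 0.77 (SE). Mien1 stood at 11.93 ± 1.35 and 12.23 ± 0.48, a difference of 0.30 ± 0.60 (SE) with an interval of −1.07 to 1.68. The adjusted p of these genes was 0.999, 0.99 and 0.985, in that order (limma). Intervals this wide cannot show whether the genotypes differ by 2-fold.

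Without NeuNT replicate 2 the differences of Stard3, Pgap3 and Mien1 turned to −0.77, −0.61 and −0.37, and Grb7 stood at 0.52. For these 4 genes the spread was wider among NeuNT than among NeuNT/H1074R tumours, and this difference in spread was not tested. The interval was −0.21 to 0.52 for Tcap. It was −0.29 to 0.29 for Neurod2 and −0.08 to 0.53 for Pnmt, whose signals lay near the dim line. Ikzf3 differed by −0.41 ± 0.53 (SE; limma, adjusted p = 0.978), and by 0.19 without NeuNT replicate 4.

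**Figure D4:**
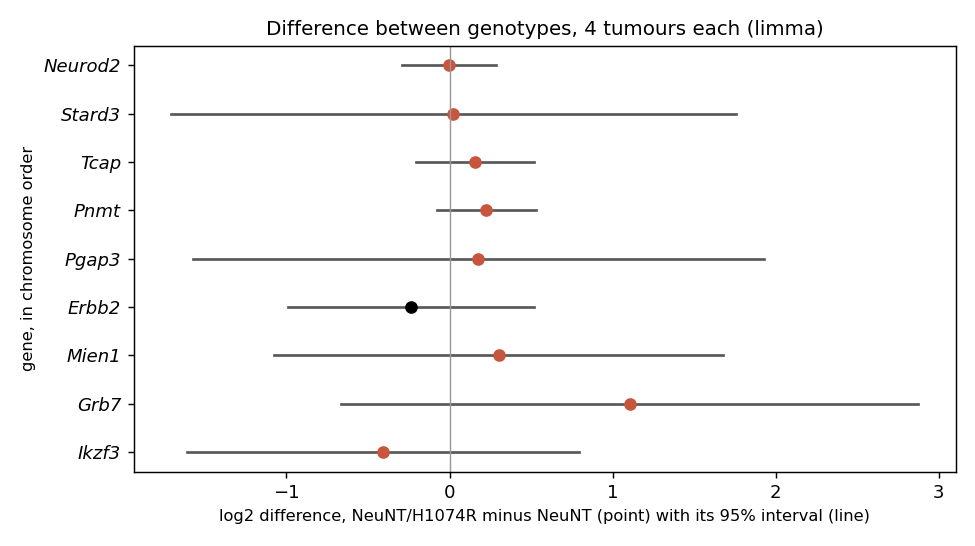
Log2 difference between genotypes, NeuNT/H1074R minus NeuNT, for Erbb2 (black) and its 8 measured neighbours in chromosome order, with the 95% interval of limma (4 tumours each). All intervals hold 0, from the narrow one of Neurod2 (−0.29 to 0.29) to the wide one of Grb7 (−0.66 to 2.87).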

How the data were processed

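The authors deposited 1 table of log2 values, 1 column per tumour and 41345 probes, from 8 mammary tumours. Per the labels' protocols, RNA was extracted with a Qiagen RNeasy kit and labelled with the Affymetrix WT Terminal Labeling Kit. Per the submitters' processing notes, Affymetrix Expression Console and Transcriptome Analysis Console were used, and the sources used here do not give their versions, the background correction, the normalization or the array build. That the values are on a log2 scale was read from their range, 0.887 to 13.6, in the deposited table. Precision is limited by the number of arrays.

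The platform annotation gave 23521 probes with 1 gene symbol, 1814 with several and none for 16010. Entrez identifiers of 23328 of the 23521 were found in RefSeq (GRCm38.p6). Of 22180 genes, 1082 had several probes and took the probe of highest mean. The 5545 genes in the lowest 25%, below 4.06, were left out.

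Genotypes, 4 tumours each, were compared with limma 3.58.1 in R 4.3.3 (eBayes with an intensity trend, two-sided, Benjamini-Hochberg over 16635 genes). Deviations and exact permutation tests of correlations were computed in Python 3.11.15 and drawn with matplotlib 3.10.9. The limma and correlation steps were tested on simulated data. Named genes are Erbb2, its neighbours, genes further along the chromosome, relatives of Grb7, marker lists and, for each member, the 3 genes of highest r after genes with predicted or clone names (Gm with digits, Rik, LOC, Mir or Snor) were passed over. The members and lists were chosen with earlier results of these data known. Alternatives were quantile normalization, arrays centred on medians, the mean of all probes, no dim filter or a 50% filter, no trend, array weights, each tumour left out, Spearman's rho, 6 tumours, genotype-centred values and other reference values for deviations. No batch was given in the sources used here.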

Additional observations from a re-analysis of the deposited data

Results flagged for a closer look

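In 3 of 18 groups of 4 tumours (9 genes in 2 genotypes), a single tumour lay far from the others of its genotype. Its gap exceeded Dixon's critical value at the 95% level, which about 1 in 20 groups of normally distributed values would pass by chance. The groups share the same tumours and are not independent, so the count of 3 cannot be judged against that rate. Mien1 and Tcap were both flagged in NeuNT replicate 2. Mien1 in NeuNT replicate 2 stood at 9.92, against 12.41 to 12.75 in the other NeuNT tumours. Tcap in NeuNT replicate 2 stood at 5.29, against 5.80 to 5.83. Tcap in NeuNT/H1074R replicate 3 stood at 6.06, against 5.74 to 5.77 in the other tumours of that genotype. The mean of the skeletal muscle markers was 6.90 there and 7.14 in NeuNT/H1074R replicate 1, where Tcap stood at 5.74. The part of muscle RNA was not tested.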

How the results depend on the processing

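Under all alternatives run, 0 flanking genes and 0 of all genes passed between genotypes (limma), and 0 correlations with Erbb2 passed after adjustment. When each tumour was left out in turn, the genotype difference ran from −0.49 to 0.0272 for Erbb2, from −0.77 to 0.47 for Stard3, from −0.61 to 0.65 for Pgap3, from −0.37 to 0.58 for Mien1, from −0.70 to 0.19 for Ikzf3 and from −0.0839 to 0.0872 for Neurod2, which stood at 0.0306 with array weights. Grb7 stayed above 0, from 0.52 to 1.71. The r with Erbb2 ran from −0.51 to 0.76 for Grb7, from −0.28 to 0.0939 for Neurod2, from 0.0735 to 0.62 for Tcap, from −0.64 to −0.23 for Ikzf3 and from −0.0306 to 0.60 for Pnmt. The number of flanking genes with an unadjusted p under 0.05 for that r was 3, 1 over 6 tumours, and 2 to 4 with a tumour left out. Values more than 2-fold below the other tumours numbered 6, and 3 to 7 with a tumour left out, and those above numbered 5, and 3 to 6. Each deviation past 2-fold kept its sign under the alternatives run, but with a tumour left out Stard3 in NeuNT replicate 1 fell as low as 0.97, Pgap3 in NeuNT replicate 3 as low as 0.89 and Pgap3 in NeuNT/H1074R replicate 3 came to −0.75, inside 2-fold. Causes were not tested. No paired analysis was possible because the labels give no tumour number that occurs in both genotypes. The precision is limited by 4 arrays per genotype, and Neurod2, Pnmt and, outside NeuNT replicate 4, Ikzf3 by signals near the dim line.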
